A study of Mus musculus with 4 samples.

Results

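Cones with mainly short-wave opsin are the mouse cone photoreceptors whose nuclei carried more RNA of Opn1sw, the gene of the short-wave (ultraviolet-sensitive) cone pigment, than of Opn1mw, the gene of the medium-wave pigment. They were picked by RNA counts in each nucleus, given as unique molecular identifiers (UMIs, 1 for each captured RNA molecule). A member had at most 5% mitochondrial UMIs, at least 5 UMIs over the 7 cone genes Arr3, Opn1mw, Opn1sw, Pde6c, Gnat2, Pde6h and Cngb3, at least 0.4% of its UMIs in these genes and at least 3 of the 7 detected. It also had more Opn1sw than Opn1mw UMIs, at most 3 UMIs of the glial genes Slc1a3 and Glul together, and at most 3 of the neuronal genes Gad1, Slc6a9 and Slc17a6 together. The rule found 1168 nuclei among 32299 barcodes with at most 5% mitochondrial UMIs, of 32326 barcodes in all. Nuclei that met the same rule with more Opn1mw than Opn1sw UMIs are called medium-wave cones below, and there were 2285 of them. A further 94 nuclei had equal UMIs of both opsins and belong to neither class.

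The study profiled nuclear RNA of the mouse retina with the 10x droplet method in 4 libraries, each from the left eye of 1 donor. Donors 1 and 2 of 2.5 months are labelled wild type, and donors 1 and 2 of 5 months carry no genotype in the labels. No strain, treatment or purpose of the age comparison was given. The file headers name Cell Ranger 7.1.0 for the younger pair and 4.0.0 for the older pair, so in each age comparison the age and the counting software cannot be told apart. Where 4 values are given in a row, they are 2.5-month replicates 1 and 2 and then 5-month replicates 1 and 2.

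Cones are the photoreceptors of daylight and colour vision. In the mouse many cones make both pigments, with more of the medium-wave pigment towards the dorsal and more of the short-wave pigment towards the ventral retina, and a minority known as genuine S-cones makes the short-wave pigment only and is wired to its own bipolar cell. Thyroid hormone receptor beta (Thrb) is known to be needed for the medium-wave pigment and to hold back the short-wave pigment, and retinoid-related and COUP transcription factors also act on the opsin genes.

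The members carried the cone genes of the rule. Of the 1168 nuclei, 1166 had a UMI of Arr3 (cone arrestin, which shuts off activated opsin), 1139 of Pde6c (the catalytic subunit of the cone phosphodiesterase) and 1048 of Gnat2 (the alpha subunit of cone transducin), and 760 had all 7 cone genes. Arr3 stood at 10764, 7723, 7218 and 8535 CPM in the summed members, where CPM is a count scaled to the summed UMIs of a class in its library. In rods, here 7649 nuclei with at least 1% of their UMIs in rod genes and at most 1 UMI of the 7 cone genes, Arr3 stood at 46.0, 37.5, 41.2 and 80.8 CPM. All of these genes served to choose the members, so these values are a description and carry no test.

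The members numbered 154 and 190 at 2.5 months and 336 and 488 at 5 months, with 375991, 608164, 782666 and 1298699 UMIs. Their median depth was 2190.5, 2800, 1919 and 2246 UMIs per nucleus, beside 2409, 3228, 2229.5 and 2421 in medium-wave cones. Pairs of libraries shared 6 to 25 barcodes, which is 0.0401% to 0.144% of the barcodes of a pair. A doublet caller marked 0.0270%, 2.20%, 8.88% and 7.96% of all barcodes and 1, 10, 40 and 60 of the members. At a rate under 0.5% the caller had not worked in the first library, so marked nuclei were kept and each count was also made without them.

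The members near the thresholds were few for the cone genes and more for the opsins. A single member had under 10 UMIs over the cone genes, 3 had only 3 of the genes, and 9 had 0.4 to 0.5% of their UMIs in them. Just outside stood 1 nucleus with 4 cone UMIs, 10 with 2 of the genes and 11 with a share of 0.3 to 0.4%. At the opsin threshold 81 members had 1 UMI more of Opn1sw than of Opn1mw, and besides the 94 equal nuclei 66 had 1 UMI more of Opn1mw. The limits on glial and neuronal UMIs kept out 38 and 14 nuclei that met all else.

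The 2 opsin genes lie on different chromosomes. The windows of 250 bases before their RefSeq transcription starts (GRCm38.p6, the assembly also called mm10) are shown because the opsin RNAs define the cells, together with the window of Ccdc136, the neighbour of Opn1sw described further on. Opn1sw is on the minus strand at chr6:29380514-29380763, Opn1mw on the plus strand at chrX:74127216-74127465 and Ccdc136 on the plus strand at chr6:29396325-29396574. Capitals mark AGGTCA or its reverse TGACCT, the core of many nuclear receptor sites.
Opn1sw: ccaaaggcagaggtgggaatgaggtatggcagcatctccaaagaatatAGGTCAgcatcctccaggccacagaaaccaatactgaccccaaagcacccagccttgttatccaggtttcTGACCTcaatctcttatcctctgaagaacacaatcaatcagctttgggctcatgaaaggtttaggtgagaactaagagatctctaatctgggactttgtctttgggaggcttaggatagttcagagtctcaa
Opn1mw: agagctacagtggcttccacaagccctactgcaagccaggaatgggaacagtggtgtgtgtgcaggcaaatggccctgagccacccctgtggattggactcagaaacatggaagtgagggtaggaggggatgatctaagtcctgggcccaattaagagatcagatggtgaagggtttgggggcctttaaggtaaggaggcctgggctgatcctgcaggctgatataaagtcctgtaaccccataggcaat
Ccdc136: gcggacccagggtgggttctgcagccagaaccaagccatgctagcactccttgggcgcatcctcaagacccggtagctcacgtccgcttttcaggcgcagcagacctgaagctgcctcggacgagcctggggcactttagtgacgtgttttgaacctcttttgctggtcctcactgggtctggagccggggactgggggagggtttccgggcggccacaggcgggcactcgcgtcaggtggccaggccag
The core occurred at bases -202 and -132 before the Opn1sw start, the second on the other strand, and not in the Opn1mw or Ccdc136 window. It was present in 4607 of 32851 such windows. The core TAATCC or its reverse GGATTA, which the photoreceptor factors Crx and Otx2 can bind, was in none of the 3 windows and in 6.25% of all. The motifs do not overlap, both strands were searched, and a match is a run of letters only.

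Most members carried RNA of both opsins. Opn1sw stood at 5325, 3647, 4177 and 5400 CPM in the members and at 759, 798, 602 and 841 CPM in medium-wave cones. Opn1mw stood at 1854, 1195, 1340 and 1724 CPM in the members and at 6424, 6218, 5330 and 6999 CPM in medium-wave cones. The median member had 12, 11, 9 and 14 UMIs of Opn1sw and 3, 3, 3 and 4 of Opn1mw, and Opn1sw made up 75% to 78.2% of its opsin UMIs.

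Members ranged from near balance to Opn1sw only. No Opn1mw UMI was seen in 35, 64, 81 and 87 members, 267 in all, which is 22.7%, 33.7%, 24.1% and 17.8% of a library's members. To set depth aside, 10 opsin UMIs were drawn from each nucleus with at least 10, and all 10 came from Opn1sw in 21.2%, 30.6%, 17.9% and 20.7% of such members. Medium-wave cones were more one-sided, since all 10 came from Opn1mw in 61.3%, 58.0%, 63.8% and 63.8% of them. At the other end 191 members had under 60% Opn1sw.

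Opn1mw RNA was also seen in nuclei of other types in every library. An Opn1mw UMI was seen in 77.3%, 66.3%, 75.9% and 82.2% of members. It was seen in 3.88%, 5.72%, 4.75% and 3.51% of rods, at median depths of 1076, 1461.5, 1280 and 1074.5 UMIs, but the limit of 1 cone-gene UMI holds that share low by choice. In amacrine nuclei, which are deeper than the members with medians of 5838, 7737, 5316 and 5816.5 UMIs, the share was 16.9%, 10.8%, 14.1% and 8.49%. Amacrine nuclei were chosen by their own markers among nuclei outside the cone rule. The share in the members was above theirs in every library. Opn1mw is a cone gene of the rule, which the members met and the amacrine nuclei did not. The choice of nuclei thus acts on this difference, which is a description only. The 108 members with a single Opn1mw UMI cannot be told from background one by one. Whether the UMIs in rods and amacrine nuclei came from free RNA or from doublets was not tested.

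**Figure D1:**
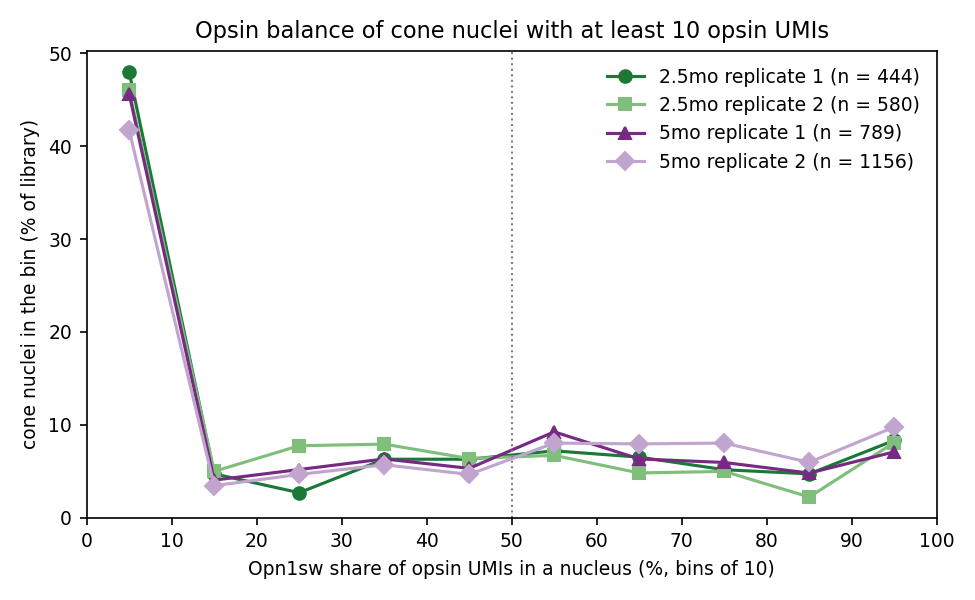
Share of Opn1sw among the opsin UMIs of a nucleus (x axis, %, bins of 10) against the share of a library's cone nuclei in that bin (y axis, %), for nuclei with at least 10 opsin UMIs; each line is 1 library, and equal nuclei fall in the bin right of the dotted line at 50%. Between 41.7% and 48.0% of cones lie in the lowest bin, and the highest bin holds at most 9.78%.

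The members without Opn1mw RNA differed from the other members in many other genes. They had far more RNA of Nrxn3 (neurexin 3, a presynaptic adhesion molecule), Trhde (an enzyme that degrades thyrotropin-releasing hormone), Gpc5 (a glypican of the cell surface) and Wscd2. They had far less of Alk (a receptor tyrosine kinase), Rgs7 (a regulator of G-protein signalling) and Tshz2 (a zinc-finger transcription factor), while Thrb was lower by a smaller step. This comparison was added after the opsin UMIs of the members had been seen. It splits a range at 0 Opn1mw UMIs and does not define a cell type. It set the sums of the 267 members without an Opn1mw UMI against those of the 901 with at least 1, with the library as a block, in edgeR's quasi-likelihood test.

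Of 5080 tested genes 158, or 3.11%, passed an adjusted p of 0.05, 68 of them higher (1.34%) and 90 lower (1.77%) in members without Opn1mw, and 153 of the 158 had the same direction in all 4 libraries. The 12 genes of the rule were not tested. Median depth was alike in the 2 groups, with 2286, 2723, 1860 and 2234 UMIs without Opn1mw and 2107, 2864, 1994 and 2248 with it, and Opn1sw itself had the same median of 12, 11, 9 and 14 UMIs in both.

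Nrxn3 stood at 5709, 7703, 6172 and 5580 CPM in members without Opn1mw and at 1193, 806, 1452 and 1206 CPM in members with it. The groups were far apart in each library, and the log2 fold change was 2.45 ± 0.13 (SE; edgeR, adjusted p = 2.69e-08). Medium-wave cones had 629, 942, 1024 and 622 CPM, below the members with Opn1mw in 3 of 4 libraries. Amacrine nuclei, which are rich in Nrxn3, had a mean of 7981 CPM, and the 6 amacrine markers outside the rule summed to 145, 73.2, 263 and 80.3 CPM without Opn1mw and to 71.6, 79.2, 195 and 155 CPM with it, against 1409 to 1614 CPM in amacrine nuclei.

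Trhde stood at 448, 413, 363 and 433 CPM without Opn1mw and at 109, 45.6, 76.2 and 112 CPM with it, a log2 fold change of 2.28 ± 0.18 (SE; edgeR, adjusted p = 1.27e-06). Gpc5 stood at 169, 172, 117 and 326 CPM without and at 23.9, 21.6, 9.94 and 40.0 CPM with Opn1mw, a log2 fold change of 3.07 ± 0.23 (SE; edgeR, adjusted p = 8.89e-07). For both genes the lowest value without Opn1mw was above the highest with it. Wscd2 rose by a log2 fold change of 2.84 ± 0.28 (SE), and Galnt13, an enzyme that starts O-glycosylation, by 0.60 ± 0.06 (SE).

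Alk moved the other way and set the members apart from each other more than from medium-wave cones. It stood at 36.3, 62.7, 72.7 and 22.3 CPM in members without Opn1mw and at 416, 705, 444 and 409 CPM in members with it. The log2 fold change was -3.34 ± 0.20 (SE; edgeR, adjusted p = 7.42e-08), and the 2 ranges did not overlap. Medium-wave cones lay between, at 208, 393, 236 and 214 CPM.

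Other genes fell in the same way to levels below those of both remaining groups. Rgs7 stood at 133, 110, 157 and 134 CPM without Opn1mw, at 481, 521, 500 and 406 CPM with it, and at 720, 855, 771 and 629 CPM in medium-wave cones. Its log2 fold change within the members was -1.81 ± 0.15 (SE; edgeR, adjusted p = 1.91e-06). Tshz2 stood at 194, 78.4, 151 and 134 CPM without and at 610, 789, 581 and 558 CPM with Opn1mw, a log2 fold change of -2.24 ± 0.19 (SE; edgeR, adjusted p = 2.02e-06). In both genes the order was members without Opn1mw, members with it and medium-wave cones in each library. Thrb stood at 1185, 1171, 1135 and 843 CPM without and at 1728, 2198, 1522 and 1429 CPM with Opn1mw, a log2 fold change of -0.66 ± 0.09 (SE; edgeR, adjusted p = 3.07e-04).

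Further genes past the threshold were Magi2 (a synaptic scaffold), Pitpnc1, Fhod3, Phactr1, Eya1 (a transcriptional co-activator and phosphatase), Pex5l, Plcl1, Cdh4 (a cadherin) and the non-coding Gm12239 and Gm26954 on the higher side, with log2 fold changes of 0.45 to 1.41. On the lower side were Fam189a1, Sfxn5, Dst, Susd4, Zfp804a, Robo1 (an axon guidance receptor), Nptx1 (a neuronal pentraxin) and the non-coding or predicted Gm2163, Gm26883, Gm32884 and Gm12394, with log2 fold changes of -1.40 to -2.46. Gm26883 lies within Tshz2 and Gm26954 within Pclo on the other strand, so their reads may not be separable from those genes. Without a block for the library 56 genes passed, among members with rod genes at most 1% of UMIs 24 passed, and with DESeq2 68 passed. Without 2.5-month replicate 2 or 5-month replicate 2 the count fell to 88 or 83.

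A finer split of the same nuclei by the UMIs of the other opsin showed the levels in steps, given for genes picked after their values were seen. With 1 Opn1mw UMI the members had 3421, 6064, 2864 and 2779 CPM of Nrxn3, and with 3 to 5 UMIs they had 171, 280, 1251 and 992 CPM. With 6 or more UMIs Nrxn3 stood at 932, 329, 1367 and 962 CPM, so the fall did not go on in every library. Alk took the opposite course, from 178, 249, 215 and 330 CPM at 1 UMI to 524, 770, 410 and 395 CPM at 3 to 5. The group with 1 UMI lay between the outer groups for both genes in all 4 libraries and held 15, 9, 38 and 46 nuclei.

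Medium-wave cones showed steps in Ccdc136 and Alk but not in Nrxn3. Ccdc136 stood at 127, 94.6, 119 and 80.9 CPM in medium-wave cones without an Opn1sw UMI and at 1224, 1637, 1106 and 1082 CPM in those with 6 or more. In the members it stood at 1814, 2184, 1644 and 1686 CPM without Opn1mw and at 1324, 1922, 1156 and 1362 CPM with 6 or more Opn1mw UMIs. Alk stood at 132, 175, 116 and 132 CPM in medium-wave cones without Opn1sw and at 470, 763, 499 and 394 CPM in those with 6 or more Opn1sw UMIs. Alk was thus high in nuclei with both opsins on either side of the opsin threshold, and Ccdc136 in nuclei with Opn1sw on either side. Nuclei with more opsin UMIs were also deeper, with medians of 2496, 3844, 2502 and 2597 UMIs in members with 6 or more Opn1mw UMIs, and CPM values are scaled to depth.

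**Figure D2:**
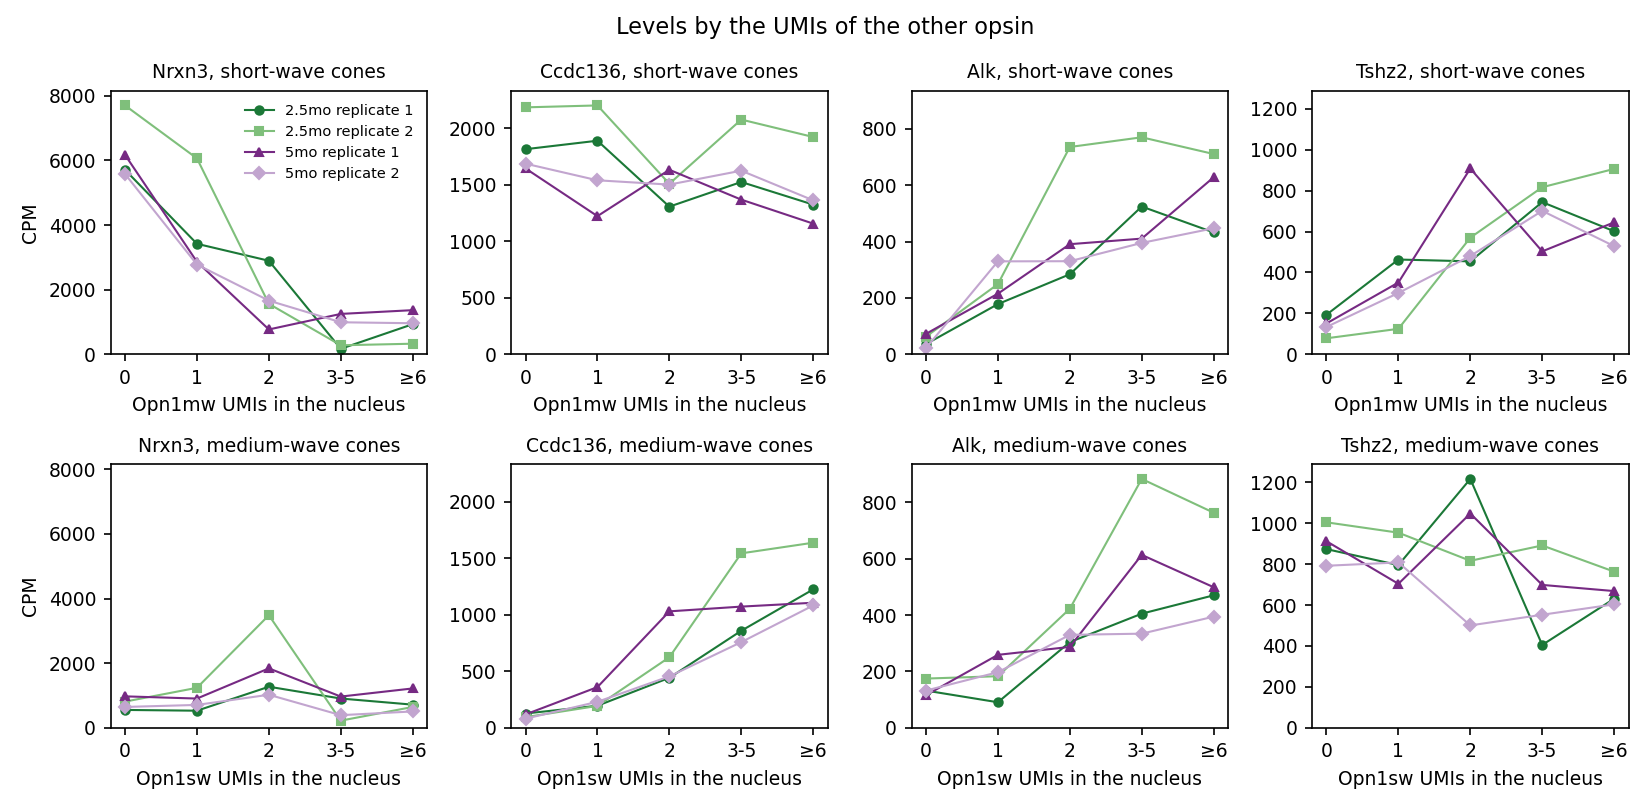
Levels of 4 genes in CPM (y axes, shared by the panels of a gene) in short-wave cones by their Opn1mw UMIs (upper row) and in medium-wave cones by their Opn1sw UMIs (lower row); each line is 1 library and each point the summed nuclei of a bin. Nrxn3 falls from 5580 to 7703 CPM at 0 Opn1mw UMIs to 329 to 1367 CPM at 6 or more, Alk and Tshz2 rise over the same bins, and Ccdc136 climbs with Opn1sw UMIs in the medium-wave cones.

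Set against medium-wave cones as a whole, the members had more Ccdc136, Nrxn3, Cacna1h (a low-voltage calcium channel), Eya1 and Lgr5 (a receptor for R-spondins), and less Smug1 (a DNA repair glycosylase), Cdh12 (a cadherin), Rgs7, Mdga2 (an adhesion molecule that binds neuroligins) and several non-coding genes beside Nr2f2. Sums of both classes from the same eye were compared with the library as a block. Of 10258 tested genes 317, or 3.09%, passed edgeR's adjusted p of 0.05, 160 of them higher (1.56%) and 157 lower (1.53%) in short-wave cones, and 299 had the same direction in all 4 libraries. The 12 genes of the rule stayed out of the test. Without the block for the library 47 genes passed, with DESeq2 131, with nuclei thinned to 1000 UMIs 198, and among nuclei with rod genes at most 1% of UMIs 135.

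Ccdc136, which encodes a coiled-coil protein, stood at 1516, 2011, 1395 and 1512 CPM in short-wave cones and at 384, 639, 396 and 361 CPM in medium-wave cones. It was higher in each library, with a log2 fold change of 1.87 ± 0.06 (SE; edgeR, adjusted p = 1.34e-16). In rods it had a mean of 32.4 ± 9.21 CPM (SD, n = 4). Nrxn3 stood at 2186, 2976, 2531 and 1961 CPM against 629, 942, 1024 and 622 CPM, a log2 fold change of 1.59 ± 0.06 (SE; edgeR, adjusted p = 1.57e-15). Without the nuclei marked as doublets this became 2.60.

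Cacna1h stood at 120, 145, 123 and 159 CPM in short-wave cones and at 23.2, 39.2, 36.2 and 39.4 CPM in medium-wave cones, a log2 fold change of 1.95 ± 0.12 (SE; edgeR, adjusted p = 1.21e-10). Eya1 stood at 144, 240, 162 and 153 CPM against 47.5, 94.6, 65.1 and 56.8 CPM, a log2 fold change of 1.39 ± 0.10 (SE; edgeR, adjusted p = 1.07e-09). Both were higher in each library, and the 2 classes did not overlap. Lgr5 rose by a log2 fold change of 1.11 ± 0.10 (SE), but the antisense gene A930009A15Rik, which rose by 1.79 ± 0.14 (SE), overlaps it and their reads may not be separable.

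The other leading genes on the higher side were Ralyl (an RNA-binding protein), Syndig1l, Wscd2, Galnt17 (an O-glycosylation enzyme), Gpc5, Mir124-2hg (the host of a neuronal microRNA), 1110017D15Rik, 5430419D17Rik and Gm12239, with log2 fold changes of 0.64 to 2.43. Of the 30 leading genes 12 overlap another counted gene, 5430419D17Rik among them, which lies on the other strand of Fgfr2.

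On the lower side Smug1 stood at 37.2, 31.2, 46.0 and 63.1 CPM in short-wave cones and at 350, 307, 302 and 339 CPM in medium-wave cones, a log2 fold change of -2.76 ± 0.12 (SE; edgeR, adjusted p = 3.44e-14). Cdh12 stood at 95.7, 39.5, 71.6 and 54.7 CPM against 315, 331, 376 and 256 CPM, a log2 fold change of -2.34 ± 0.12 (SE; edgeR, adjusted p = 1.67e-12). Both genes were low in every short-wave sum, with no overlap of the classes. Unlike Rgs7 and Tshz2, neither differed detectably within the members, where the log2 fold change without against with Opn1mw was 0.19 for Smug1 (edgeR, adjusted p = 0.93) and -0.28 for Cdh12 (edgeR, adjusted p = 0.87). The remaining leading genes were Rgs7, Tshz2, Frmpd2 (a scaffold protein), Grip1 (a glutamate receptor scaffold), Mdga2, Zfhx4, Samd7, Dock11 (a guanine nucleotide exchange factor), 4930434J06Rik and AC146911.1, at log2 fold changes of -0.68 to -3.01.

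**Figure D3:**
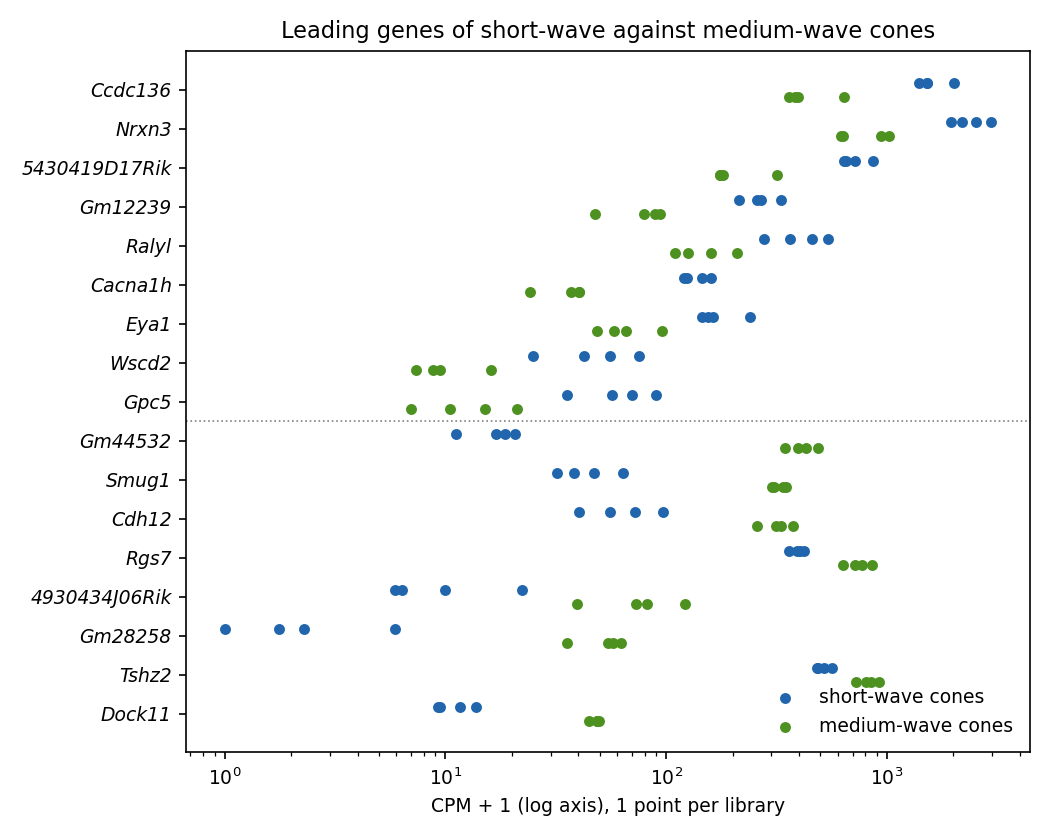
CPM + 1 on a log axis in short-wave cones (blue) and medium-wave cones (green), 1 point per library, for 9 of the leading genes higher (above the dotted line) and 8 lower (below it) in short-wave cones. Gm44532 lies at 10.2 to 19.7 CPM in short-wave and at 345 to 487 CPM in medium-wave cones, and the 2 classes do not overlap in any gene shown.

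Several genes beside Nr2f2 fell. Nr2f2 encodes COUP-TFII, a nuclear receptor, and lies at chr7:70351944-70366735 (mm10, minus strand). Of 12 counted genes within 300000 bases of it, Nr2f2 included, 5 were tested and all 5 were lower in short-wave cones, while 1.53% of all tested genes were. This window, wider than the one used for the opsins, was chosen after the falls had been seen, so the count is a description only. Nr2f2 stood at 5.32, 4.93, 14.1 and 20.8 CPM in short-wave and at 45.4, 53.0, 36.2 and 37.6 CPM in medium-wave cones, a log2 fold change of -1.62 ± 0.27 (SE; edgeR, adjusted p = 5.43e-04). Without nuclei marked as doublets it was -2.97.

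The long non-coding genes beside it showed larger differences. Gm44532, at chr7:70420915-70453222 on the minus strand, stood at 16.0, 19.7, 10.2 and 17.7 CPM in short-wave and at 487, 428, 393 and 345 CPM in medium-wave cones. That is a 24.5-fold lower fitted level, with a log2 fold change of -4.62 ± 0.13 (SE; edgeR, adjusted p = 1.57e-17), the smallest p of all tested genes. Gm28258, at chr7:70372038-70388410, had 5 UMIs in all short-wave cones and 328 in medium-wave cones, a log2 fold change of -4.79 ± 0.35 (SE; edgeR, adjusted p = 1.71e-09). Gm44812 and Gm35842, further along the same stretch, had log2 fold changes of -4.70 ± 0.41 and -5.02 ± 0.56 (SE). In rods Gm44532 had a mean of 116 ± 11.5 CPM (SD, n = 4).

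Around Opn1sw 2 of 3 tested genes within 100000 bases were higher in short-wave cones, against 1.56% of all tested genes. Ccdc136, at chr6:29396309-29426994 on the opposite strand, starts 7841 bases above the highest coordinate of the Opn1sw gene model. Opn1sw is on the minus strand, so this is the side of its transcription start. Calu, which encodes a calcium-binding protein of the secretory pathway, stood at 104, 123, 58.8 and 100 CPM in short-wave and at 35.9, 41.0, 32.3 and 38.5 CPM in medium-wave cones, a log2 fold change of 1.34 ± 0.14 (SE; edgeR, adjusted p = 6.18e-07). Its gene model overlaps that of Opn1sw by 440 bases on the other strand, so its count may hold opsin reads. The third, Atp6v1f, had a log2 fold change of 0.06 ± 0.13 (SE; edgeR, adjusted p = 0.94).

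Among the 160 genes higher in short-wave cones, 128 could be tested within the members. Of these 33 were also higher in members without Opn1mw, among them Ccdc136, Cacna1h, Eya1, Mef2c and Gngt2, and 6 were lower, namely Alk, Kcne2, Plcz1, Ldlrad4, 1110017D15Rik and 5430419D17Rik. Among the 157 lower genes 120 could be tested, and 25 were also lower and 2, Cdh4 and Agbl4, higher in members without Opn1mw. Over all genes tested within the members, 1.34% were higher and 1.77% lower without Opn1mw. The 2 comparisons share the members' nuclei, so the counts are a description.

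Of the 21 cone phototransduction genes outside the rule, all tested, 4 were higher in short-wave cones, beside 1.56% of all tested genes, and 0 lower, with a median log2 fold change of 0.09 beside 0.00 over all tested genes. The 4 were Guca1a and Guca1b, the calcium sensors of guanylate cyclase, and Gnb3 and Gngt2, the beta and gamma subunits of cone transducin. Guca1a stood at 1335, 774, 1155 and 1720 CPM in short-wave and at 983, 641, 845 and 1427 CPM in medium-wave cones, a log2 fold change of 0.35 ± 0.05 (SE; edgeR, adjusted p = 5.23e-05). It was higher in short-wave cones of every library, but the ranges over libraries overlapped.

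Cnga3 and Grk1 did not pass. Cnga3, a subunit of the cone cyclic nucleotide-gated channel, stood at 154, 148, 121 and 119 CPM against 135, 142, 132 and 102 CPM, with a log2 fold change of 0.08 ± 0.10 (SE; edgeR, adjusted p = 0.85). Grk1, the opsin kinase, had 0.16 ± 0.07 (SE; edgeR, adjusted p = 0.38). Within the members only Gngt2 of 20 tested genes passed, at 0.37 ± 0.10 (SE) higher without Opn1mw, beside 3.11% of all genes tested there.

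Regulators of photoreceptor and opsin genes moved in both directions. Of 28 listed genes 19 were tested, and Mef2c and Samd11 were higher and Thrb, Nr2f2 and Samd7 lower in short-wave cones, 5 genes in all, beside 3.09% of all tested genes. The list's median log2 fold change was -0.02, beside 0.00 over all tested genes. Thrb stood at 1609, 1874, 1434 and 1327 CPM in short-wave and at 2089, 2356, 1884 and 1594 CPM in medium-wave cones, a log2 fold change of -0.35 ± 0.04 (SE; edgeR, adjusted p = 7.84e-06). It was lower in each library by a small step compared with the genes above.

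Samd7, a photoreceptor repressor linked to Polycomb, stood at 55.9, 34.5, 43.4 and 47.0 CPM in short-wave and at 110, 122, 144 and 103 CPM in medium-wave cones, a log2 fold change of -1.41 ± 0.14 (SE; edgeR, adjusted p = 2.06e-07). Its relative Samd11 was higher, by 0.53 ± 0.13 (SE; edgeR, adjusted p = 0.019). Mef2c, a transcription factor of the MEF2 family, rose by 0.46 ± 0.06 (SE), and by 0.45 ± 0.11 (SE) within the members. Rxrg, the partner receptor of Thrb in cones, had 0.30 ± 0.11 (SE; edgeR, adjusted p = 0.23), and Crx, which activates most photoreceptor genes, -0.02 ± 0.06 (SE; edgeR, adjusted p = 0.98).

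Within the members the same list gave 16 tested genes, of which Rorb, Casz1, Mef2c and Lhx4 were higher and Thrb and Rora lower without Opn1mw, 6 genes in all, beside 3.11% of all tested genes. Lhx4, a LIM homeobox factor, stood at 60.5, 105, 67.1 and 66.9 CPM without Opn1mw and at 13.6, 31.2, 29.8 and 28.9 CPM with it, a log2 fold change of 1.44 ± 0.29 (SE; edgeR, adjusted p = 0.0092). Medium-wave cones had 63.3, 66.3, 58.4 and 47.9 CPM, above the members with Opn1mw in each library. Rorb, a retinoid-related receptor that activates Opn1sw, rose by 0.45 ± 0.10 (SE), and Rora fell by a log2 fold change of -0.30 ± 0.07 (SE).

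**Figure D4:**
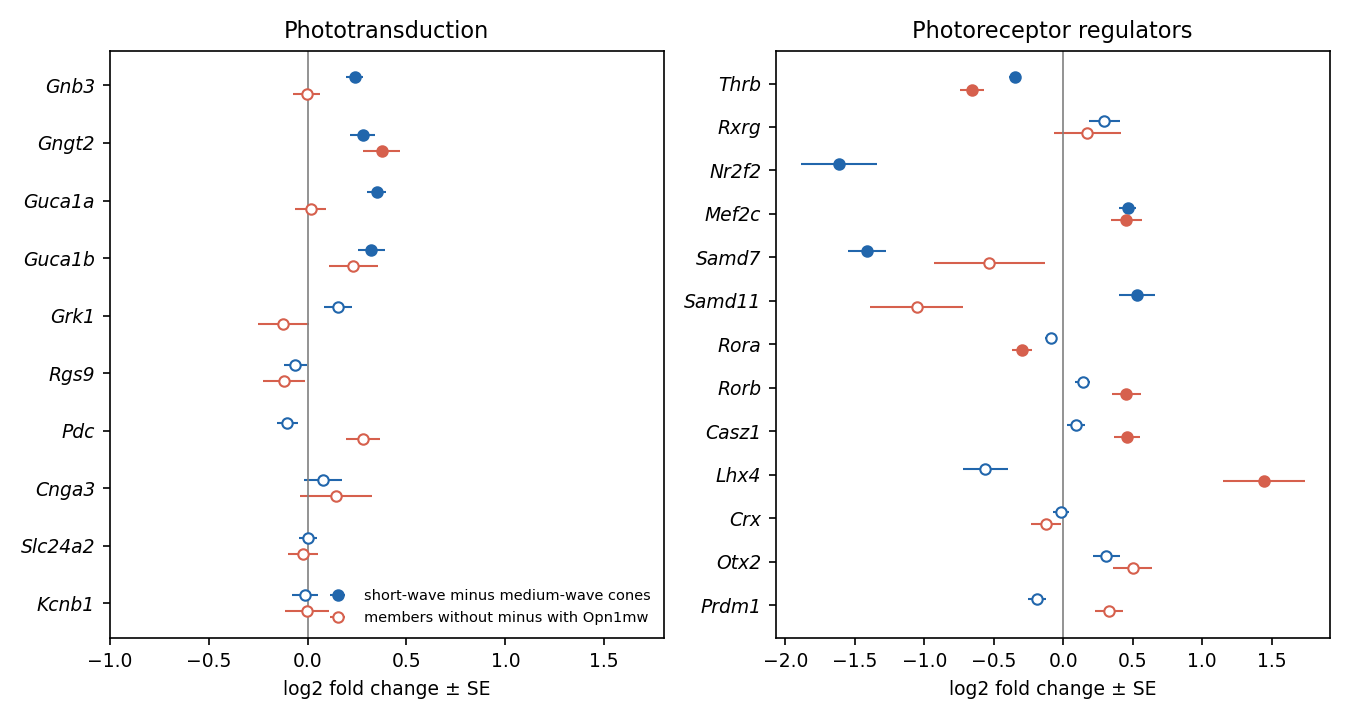
Log2 fold changes with their standard errors (x axes) of phototransduction genes (left) and photoreceptor regulators (right), for short-wave minus medium-wave cones (blue) and for members without minus members with Opn1mw (red); filled points passed an adjusted p of 0.05 by edgeR, open points did not, and Nr2f2 was not tested within the members. Nr2f2 (-1.62) and Samd7 (-1.41) lie furthest to the left for short-wave cones, and Lhx4 (1.44) furthest to the right within the members.

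Genes that mark position in the retina were mostly too low to test. Of 20 dorsal or ventral genes 7 were tested, and Vax2, a ventral homeobox factor, and Bmpr1b, a BMP receptor, were higher in short-wave cones, beside 1.56% of all tested genes. Vax2 stood at 23.9, 23, 23 and 23.9 CPM in short-wave and at 11.6, 8.43, 11.1 and 16.0 CPM in medium-wave cones, a log2 fold change of 0.94 ± 0.26 (SE; edgeR, adjusted p = 0.047). Without marked doublets its adjusted p was 0.055. Bmpr1b stood at 21.3, 39.5, 34.5 and 21.6 CPM against 9.49, 9.64, 9.46 and 18.8 CPM, a log2 fold change of 1.20 ± 0.29 (SE; edgeR, adjusted p = 0.017). Tbx5, a dorsal factor, was at or under 2.66 CPM in all cone sums. None of the list could be tested within the members.

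Synapse genes moved in both directions. Of 31 ribbon synapse genes 29 were tested, 4 higher and 2 lower in short-wave cones, beside 1.56% and 1.53% of all tested genes, with a median log2 fold change of 0.01. Besides Nrxn3, the release factors Unc13b and Rims2 rose by 0.27 ± 0.05 and 0.19 ± 0.04 (SE) and Elfn2 by 0.82 ± 0.21 (SE). Syt1, the calcium sensor of release, and Erc2, an active zone protein, fell, with log2 fold changes of -0.23 ± 0.04 and -0.20 ± 0.05 (SE), and Erc2 did not pass under the limit on UMIs defined below (adjusted p = 0.26 by edgeR). Within the members Pclo, Unc13b, Slc1a7 (a photoreceptor glutamate transporter) and Nrxn3 were higher without Opn1mw, of 27 tested, beside 1.34% of all genes tested there. Gm26954, also higher, lies within Pclo on the other strand, so the reads of Pclo may not be separable from it.

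Of 24 outer segment, cilium and visual cycle genes 23 were tested, 3 were lower in short-wave cones, beside 1.53% of all tested genes, and 0 higher. They were Cdhr1, a photoreceptor cadherin, at a log2 fold change of -0.57 ± 0.08 (SE), Rp1l1, a protein of the photoreceptor axoneme, at -0.36 ± 0.07 (SE), and Rbp3, the retinoid-binding protein between photoreceptors and pigment epithelium, at -0.23 ± 0.06 (SE). Fam19a3, a secreted factor listed among genes linked to S-cones elsewhere, rose by 0.27 ± 0.07 (SE).

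No gene passed between the cone classes among 9 immediate early, 14 clock, 11 mitochondrially encoded and 29 ribosomal protein genes tested. With 3.09% of all tested genes called, 0 in lists of this size says nothing particular of them. By an unadjusted p under 0.05, 1228 of all tested genes differed, and DESeq2 called 131. Socs3, an inhibitor of cytokine signalling, stood at 26.6, 28.0, 38.3 and 55.4 CPM in short-wave and at 5.27, 13.9, 7.23 and 8.45 CPM in medium-wave cones, a log2 fold change of 2.13 ± 0.27 (SE; edgeR, adjusted p = 9.54e-06). H2-Q4, an MHC class I gene, rose by 1.35 ± 0.33 (SE) at 14.1 to 21.3 CPM in short-wave cones. Socs3 was the only gene called of 14 tested stress and cell death genes, whose median log2 fold change was 0.15. H2-Q4 was the only one called of 10 tested interferon and MHC class I genes, with a median of 0.05. Of all tested genes 1.56% were higher, so these single genes say nothing of their lists.

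Markers of other cells were measured in both cone classes. The 12 rod markers summed to 11560, 9147, 10940 and 9032 CPM in short-wave and to 10490, 8075, 9269 and 8624 CPM in medium-wave cones, beside 22670 to 26050 CPM in rods. Rod markers were thus slightly higher in short-wave cones of each library, and Sag, the rod arrestin that cones also express, was the only one of the 12 to pass, at 0.24 ± 0.04 (SE; edgeR, adjusted p = 1.59e-04). The 7 Müller glia markers outside the rule summed to 367 to 424 CPM in short-wave and to 339 to 472 CPM in medium-wave cones. Of the other cells' markers, Cabp5, of bipolar cells, was higher in short-wave cones at 63.8, 57.6, 37.1 and 63.1 CPM. In medium-wave cones it stood at 31.6, 33.7, 25 and 29.1 CPM, a log2 fold change of 0.88 ± 0.16 (SE; edgeR, adjusted p = 0.00131). Ttn, a muscle gene, was also higher, at 106 CPM in 5-month replicate 2 and at most 16.0 CPM in the other short-wave sums. Tpm3 and Dct were lower, and neither passed without marked doublets (adjusted p = 0.87 and 0.062). The part of such RNA in the differences between the classes was not tested beyond the counts given.

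Between the ages the number of genes called in short-wave cones differed widely between settings. Across all members 86 genes were higher at 5 months and 4 lower, of 9048 tested, which is 0.995% of the genes (0.950% higher and 0.0442% lower) by edgeR's quasi-likelihood test. The genes of lowest p on the higher side included Fam19a1, Mgat4c, Il1rapl1, Trpm3 and Ncam2. Without the 111 members marked as doublets 4 genes passed, 2 higher and 2 lower, and among members with at most 1.5 times their library's median UMIs 9 passed, 5 higher and 4 lower. Of the 90 genes called over all members, 70 and 52 were abundant enough to be tested in these settings, and 2 and 10 of them had the opposite sign. Without 2.5-month replicate 1 the count over all members rose to 216. With 2 libraries at each age the fit has 2 residual degrees of freedom.

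Most of the 86 genes had a higher mean level in amacrine nuclei than in short-wave cones. In 72 of 86 the mean in amacrine nuclei over all 4 libraries was at least 3 times that of short-wave cones at 5 months. The same share over all tested genes was not counted, so this count is a description only. In the members, in which they were picked by their age difference, the 86 genes summed to 4886, 4905, 18406 and 19183 CPM. Without marked doublets the sums were 4881, 3748, 13800 and 8855 CPM, and under the limit on UMIs 2866, 3945, 8563 and 8040 CPM. Their median log2 fold change fell from 2.16 to 1.10 without marked doublets, over the 66 genes still tested, and to 0.27 under the limit on UMIs, over 48.

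The same genes were higher at 5 months in the other photoreceptors as well. They summed to 6557, 8205, 17862 and 17158 CPM in medium-wave cones and to 4599, 5224, 14852 and 12429 CPM in rods. In amacrine nuclei they were not higher at 5 months, with sums of 99688, 113931, 98021 and 87544 CPM. The 6 amacrine markers summed to 87.8, 77.3, 211 and 142 CPM in all members and to 88.6, 54.1, 124 and 57.5 CPM without marked doublets. The share of members marked as doublets was 0.649%, 5.26%, 11.9% and 12.3%, so it too was higher at 5 months, and the caller had not worked in the first library.

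**Figure D5:**
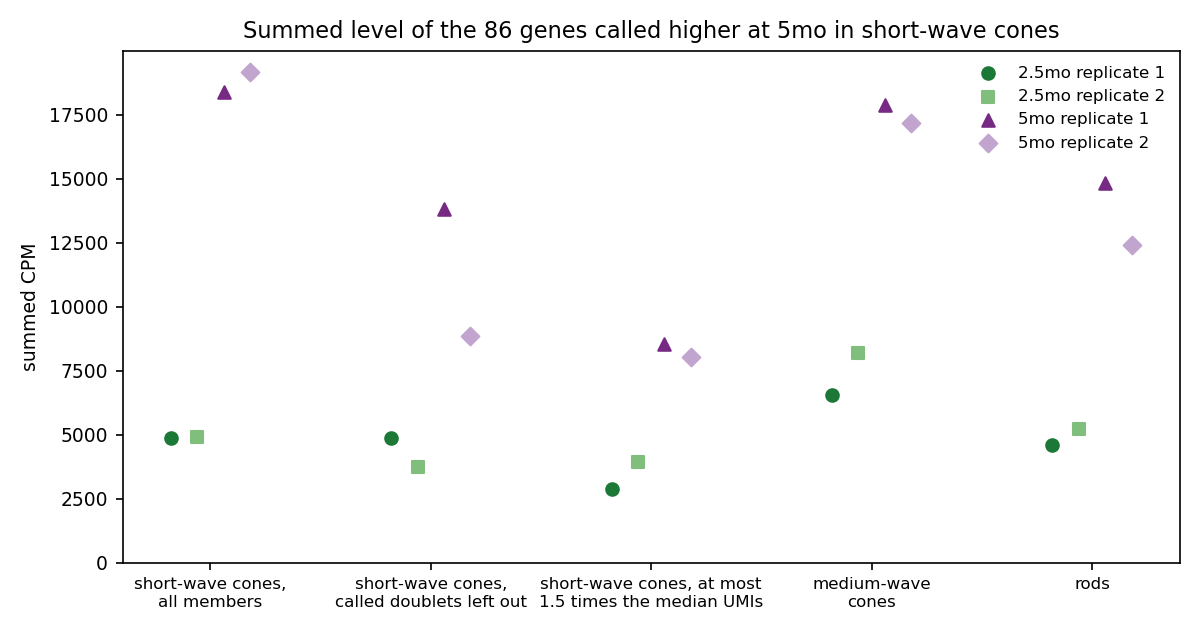
Summed CPM (y axis) of the 86 genes called higher at 5 months in short-wave cones, 1 point per library, in all members, without nuclei marked as doublets, under the limit on UMIs, in medium-wave cones and in rods. The 5-month libraries lie at 18406 and 19183 CPM in all members and at 8563 and 8040 CPM under the limit on UMIs, above the 2.5-month libraries in each column. The genes were picked as higher at 5 months in these same members, which fixed the order in the all-members column. The subsets of members reuse the same nuclei.

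Cmss1 and Peak1 passed in all members, without marked doublets and under the limit on UMIs. Cmss1, a nucleolar protein gene whose model overlaps Filip1l and others on the other strand, stood at 383, 710, 2884 and 3470 CPM. The ages did not overlap, which the choice of leading age genes required. The log2 fold change was 2.55 ± 0.32 (SE; edgeR, adjusted p = 0.0019) over all members, 2.59 without marked doublets and 2.64 under the limit on UMIs. In medium-wave cones it stood at 435, 709, 2664 and 3570 CPM. Peak1, a pseudokinase, stood at 125, 181, 635 and 504 CPM in short-wave cones, a log2 fold change of 1.89 ± 0.25 (SE; edgeR, adjusted p = 0.0025) and 1.95 without marked doublets.

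Il1rapl1, a synaptic adhesion molecule, is an example of the larger group. It stood at 31.9, 34.5, 180 and 224 CPM, a log2 fold change of 2.62 ± 0.29 (SE; edgeR, adjusted p = 9.49e-04), which became 1.65 without marked doublets (edgeR, adjusted p = 0.87), and it was too low to be tested under the limit on UMIs. Galntl6, Grm7 and Fam155a changed sign under that limit, to -0.12, -0.035 and -0.23. Fam19a1, with 7.98, 8.22, 107 and 131 CPM and a log2 fold change of 3.88 ± 0.38 (SE), was too low to be tested without marked doublets. Col25a1 had 2 UMIs at 2.5 months and 120 at 5 months, a ratio of 28.4 with a 95% counting interval of 7.68 to 237.

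The 4 lower genes kept their direction in both settings. Rps2, a ribosomal protein gene, stood at 128, 51.0, 3.83 and 4.62 CPM, a log2 fold change of -4.23 ± 0.54 (SE; edgeR, adjusted p = 0.0019), and at 97.0, 60.8, 5.56 and 3.29 CPM in medium-wave cones. Rps21 stood at 213, 97.0, 21.7 and 29.3 CPM, a log2 fold change of -2.49 ± 0.37 (SE). AC149090.1 stood at 319, 337, 79.2 and 115 CPM, a log2 fold change of -1.72 ± 0.24 (SE), and passed without marked doublets too, as did Rps2. Crybb2, a lens crystallin, had 71.8 and 16.4 CPM at 2.5 months and no UMI at 5 months, and its 37 UMIs at the younger age were mostly in replicate 1. The 9 lens and muscle markers summed to 412, 90.4, 74.1 and 205 CPM in the members, and the sum was highest in the first library.

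No phototransduction or regulator gene passed the test for age, and at a background of 0.995% this says nothing particular of them. All 21 phototransduction genes outside the rule were tested and 0 passed, with a median log2 fold change of -0.15 beside 0.02 over all genes, and none of 17 regulators passed. At an unadjusted p under 0.05, 687 of all tested genes differed, and DESeq2 called 63. Opn1sw, used by the rule and given here as a level only, had 4486 ± 1186 CPM at 2.5 months and 4788 ± 865 CPM at 5 months (SD, n = 2). Of 13 clock genes tested 0 passed. Of 29 ribosomal protein genes 2 were lower (Rps2 and Rps21), beside 0.0442% of all tested genes. The list as a whole leaned the other way, with 18 of the 29 positive and a median log2 fold change of 0.20. On simulated counts the test found 26.2% of genes changed by 1 and 90% of genes changed by 2 on the log2 scale, so changes of the smaller size could be missed.

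The age effect differed between short-wave and medium-wave cones in 23 of 11137 tested genes (0.207%), with a larger effect in short-wave cones in 18 (0.162%) and a smaller one in 5 (0.0449%). Slit2, an axon guidance ligand, stood at 37.2, 29.6, 153 and 121 CPM in short-wave and at 113, 141, 145 and 99.5 CPM in medium-wave cones, a difference of the age effects of 2.2 ± 0.26 (SE, log2; edgeR, adjusted p = 2.48e-06). Under the limit on UMIs 19 of the 23 could be tested and 0 passed, and Slit2 turned to -0.97. With thinned nuclei 20 could be tested and 0 passed, and 0 of 23 passed with DESeq2. Without marked doublets 41 genes passed, 13 of them among the 23, while without 2.5-month replicate 1 or 5-month replicate 1 the count rose to 65 or 47. By edgeR 646 genes had an unadjusted p under 0.05.

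Short-wave nuclei made up 30.6%, 28.9%, 32.3% and 39.0% of the cones of a library. The 95% Wilson binomial intervals, which cover counting error only, were 26.7 to 34.7%, 25.5 to 32.5%, 29.5 to 35.2% and 36.3 to 41.7%. The mean was 29.7 ± 1.19% at 2.5 months and 35.7 ± 4.74% at 5 months (SD, n = 2), a difference of 5.94 percentage points, and only the interval of 5-month replicate 2 lay above those of the other libraries. The exact permutation test (2-sided) gave p = 0.33, the smallest p that 2 libraries against 2 allow. Without 5-month replicate 2 the difference was 2.59 percentage points.

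Of all barcodes with at most 5% mitochondrial UMIs, 2.09%, 2.56%, 4.46% and 4.90% were short-wave cones, so the ages did not overlap. The difference of 2.36 percentage points had the same exact permutation p of 0.33. Medium-wave cones were also a larger share at 5 months, with 4.74%, 6.31%, 9.34% and 7.66%. How many nuclei of each type a library holds also depends on dissection and capture, whose part was not tested.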

How the data were processed

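Nuclear RNA was counted in 4 10x libraries, and the deposited values are raw UMI counts per gene and barcode, made by the authors with Cell Ranger 7.1.0 (2.5 months) or 4.0.0 (5 months), per the file headers, on mm10, per the submitters' processing notes. Whether intron reads were counted is not given in the sources used here. The members and gene lists were chosen with earlier results of these data known. UMIs were summed per library and class and tested with edgeR 4.0.16 (TMM, filterByExpr, quasi-likelihood test, 2-sided, Benjamini-Hochberg adjusted, threshold 0.05) in R 4.3.3, with the library as a block within eyes. The 12 rule genes stayed out of every test except that of age within short-wave cones, where they were kept in the sums and the adjustment. DESeq2 1.42.0 was an alternative. Named genes were the up to 15 of lowest p in each direction with the same sign in every library, plus listed genes. For age the same sign meant no overlap of the 2 ages. For the difference of the age effects it meant no overlap of the class differences at the 2 ages. Doublets were called with scrublet in scanpy 1.11.5 at an expected rate of 0.06 and kept. The limit on UMIs was 1.5 times the median of a class in its library. Rods were redefined after the first rule also took other nuclei. Library depth was 19608067, 28723257, 28042269 and 36320257 UMIs. Each library is from a separate donor, so the p-values for age measure the spread between donors. Where the library was a block, they measure how the difference between classes within an eye varied over donors. Gene positions are from GENCODE M21, in which 30934 of 31053 feature IDs were found. The scripts were tested on simulated data. Results for some genes are not reported here.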

Additional observations from a re-analysis of the deposited data

Results flagged for a closer look

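The effect of age differed between short-wave and medium-wave cones by edgeR's test of the interaction in several named genes. The values are the log2 age effect in short-wave cones minus that in medium-wave cones. It was larger in short-wave cones for Slit2 (2.2), Grik2 (2.67), Trpm3 (1.75), Kcnip4 (1.26), Mdga2 (1.05), Adarb2 (2.31), Grm7 (1.74), Nxph1 (3.74) and Dab1 (2.56). The same held for Kcnmb2 (3.72), Cntn5 (1.44), Lrfn5 (2.08), Grik1 (2.32) and Zmat4 (2.93). It was smaller in short-wave cones for Robo1 (-1.79), Fam129a (-2.63), Spon1 (-1.92), Myh11 (-2.36) and Foxp2 (-1.74). When nuclei above 1.5 times the median UMIs were left out, the genes among these that could still be tested did not pass, and the others were too low to be tested.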

How the results depend on the processing

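The settings with a limit on UMIs, and the whole comparison of members without and with Opn1mw, were chosen after seeing the data. For age, 90 genes passed, and 243 without a filter on low counts, 4 with nuclei thinned to 1000 UMIs, 4 without marked doublets, 9 under the limit on UMIs and 70 to 216 when 1 library was left out. With the replicate number as a block 161 passed, but the numbers did not pair the ages (r = 0.02 over 9048 genes). Between short-wave and medium-wave cones 317 genes passed, and 131 with DESeq2, 47 without the library block, 198 thinned, 135 with rod genes at most 1% of UMIs and 233 to 266 when 1 library was left out. For the difference of the age effects 23 passed, and 51 without a filter, 0 with DESeq2, 0 thinned, 0 under the limit on UMIs, 41 without marked doublets, 11 with few rod UMIs and 24 to 65 when 1 library was left out, with 646 genes at an unadjusted p under 0.05 by edgeR. Within the members 158 passed, and 263 without a filter, 68 with DESeq2, 56 without the library block, 24 with few rod UMIs, 242 under the limit on UMIs and 83 to 157 when 1 library was left out. The share of short-wave nuclei among cones differed by 2.59 to 9.29 percentage points when 1 library was left out, and that among all nuclei by 2.12 to 2.59, or by 1.74 with a margin between the opsins. Under the limit on UMIs the age effect turned to -0.12 in Galntl6, -0.035 in Grm7 and -0.23 in Fam155a, and the difference of the age effects to -0.97 in Slit2, -0.18 in Trpm3, -0.34 in Kcnip4, -0.99 in Lrfn5 and -0.72 in Grik1. Without marked doublets Myh11 turned to 0.25. The cause of these changes was not tested.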
